A study of Mus musculus with 7 samples.

Results

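The collagen genes were followed in macrophage preparations sorted from GL261 gliomas and from normal brain of mice, by gene expression arrays. A gene was taken as a collagen gene when its symbol had the form Col, a number, a and a number, and when it was measured by a probe set assigned to that symbol alone. This gave 42 genes out of 18193, read by 82 probe sets. Where a gene had several probe sets, the brightest one on average over the 7 arrays stood for it, and dim genes were kept. This rule used only names and mean brightness. For genes dim in normal brain the choice of probe set rested mostly on the GL261 arrays. It was thus not independent of the difference between the groups. The family was chosen with earlier results of these data known.

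The GL261 group consisted of 4 arrays, replicates 1 to 4, of macrophages from tumours that had grown for 21 days in the brain of C57/Bl6 mice whose marrow had been replaced with GFP-labelled bone marrow. GL261 is a mouse glioma line used as a transplantable brain tumour. The normal brain group consisted of 3 arrays, replicates 1 to 3, of macrophages from C57/Bl6 mice 8 weeks old. Both groups were digested with papain and sorted for GFP and for F4/80, a macrophage surface protein encoded by Adgre1. The labels do not state whether the normal brain mice received labelled marrow, how old the tumour-bearing mice were, or whether arrays came from separate mice. All p-values therefore measure the spread between these arrays, which may be technical.

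Collagens are extracellular matrix proteins whose chains, built from short repeats that begin with glycine, wind around each other in a triple helix. Fibrillar collagens (types I, II, III, V and XI) make the banded fibres of connective tissue and cartilage, type IV makes the network of basement membranes, and the FACIT collagens, such as type IX, sit on the surface of fibrils. In the healthy brain, collagen is found mainly in the basement membranes of vessels, in the meninges and around blood vessels, where endothelial cells, pericytes and fibroblasts make most of it. Macrophages are better known for cutting and taking up collagen than for depositing it, though some express collagen genes at low level.

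Values are MAS5 signals, linear intensities of 1 probe set, and differences are on the scale of log2(signal + 6). The median signal was 50.9 to 65.0 on the GL261 arrays and 49.5 to 73.0 on the normal brain arrays. Background, the 95th percentile of 27 control probe sets for bacterial transcripts, lay at a signal of 12.3 to 18.3 on the GL261 arrays and 16.3 to 19.9 on the normal brain arrays. Signal at the 3′ end of Gapdh over that at its 5′ end, a measure of RNA and labelling quality, was 1.64 to 1.89 in GL261 and 2.39 to 2.43 in normal brain without overlap, and its part in the differences below was not tested. All 10 macrophage marker genes were above background on every array, with a summed signal of 69017 to 95250 in GL261 and 82439 to 104776 in normal brain. F4/80 (Adgre1) itself had signals of 5965 to 6716 in GL261 and 7395 to 8758 in normal brain.

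The comparison of GL261 with normal brain showed that every collagen gene called was higher in GL261. In GL261, 31 to 33 collagen genes were above background on each array, against 18 to 22 in normal brain. Each array had its own background level, which was higher on the normal brain arrays than on GL261 replicates 1 to 3. The share of all genes above background was not counted per array. The summed signal of the 42 genes was 6616, 10156, 6293 and 5290 on GL261 replicates 1 to 4, against 2286, 2480 and 3643 on normal brain replicates 1 to 3. Col9a1, Col11a1, Col5a2, Col3a1, Col2a1, Col18a1, Col1a1, Col9a2, Col5a1 and Col11a2 were called higher at an adjusted p under 0.05 (limma, Benjamini-Hochberg over all genes tested). No collagen gene was called lower by limma, and at an unadjusted p under 0.05 only Col27a1 was lower. A signal from a mixed preparation cannot tell more cells of a type apart from more RNA per cell.

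Of the 42 genes, 25 passed the filter on low mean signal. Of those, 10 were called higher and 0 lower, and all 10 differed at least 2-fold. Of the 12125 tested genes 10.1% were called, 5.92% higher and 4.2% lower, and 5.95% were called at least 2-fold apart in either direction. That filter uses the mean of all arrays, and 8 of the 10 passed it only through their GL261 values, so the count over passing genes is a description. Without the filter all 42 could be tested. Of these 7 were called higher (Col9a1, Col11a1, Col5a2, Col3a1, Col18a1, Col2a1 and Col4a5) and 0 lower, against 5.04% of 18193 genes called, 2.87% higher and 2.17% lower. At an unadjusted p under 0.05, 1 collagen gene was lower in that fit. In 13 of the 42 genes every GL261 array lay above every normal brain array, and in 0 every GL261 array lay below, where the shares over all 18193 genes were 9.68% and 9.07%, or 18.8% together. The median log2 difference was 0.73 over the 42 genes, or 0.64 with genes at background in a whole group set to their bound, and -0.01 over all genes.

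The calls of 5 genes (Col9a1, Col11a1, Col2a1, Col3a1 and Col18a1) were made in each of the 7 fits that left out 1 array. Leaving out any 1 of GL261 replicates 1 to 4 reduced the count of collagen genes called higher to 6. Col5a2 fell under the filter without GL261 replicate 3 and was called in the other fits.

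**Figure D1:**
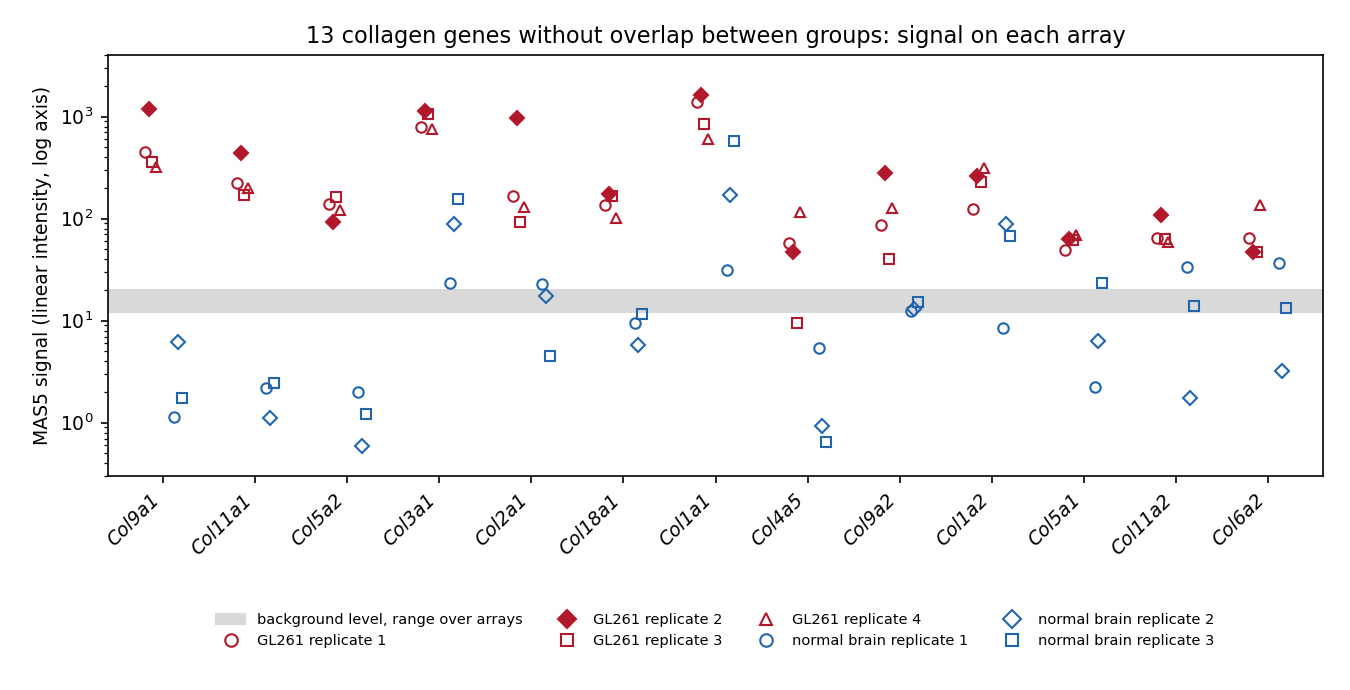
MAS5 signal (log axis) of 13 collagen genes on each array, GL261 in red left of normal brain in blue, with 1 point per array and a symbol per replicate number; GL261 replicate 2 is filled and the grey band spans the background level of the 7 arrays. In all 13 genes the 4 GL261 points lie above the 3 normal brain points, and Col9a1, Col11a1, Col5a2, Col18a1, Col9a2 and Col4a5 are at background on all normal brain arrays.

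**Figure D2:**
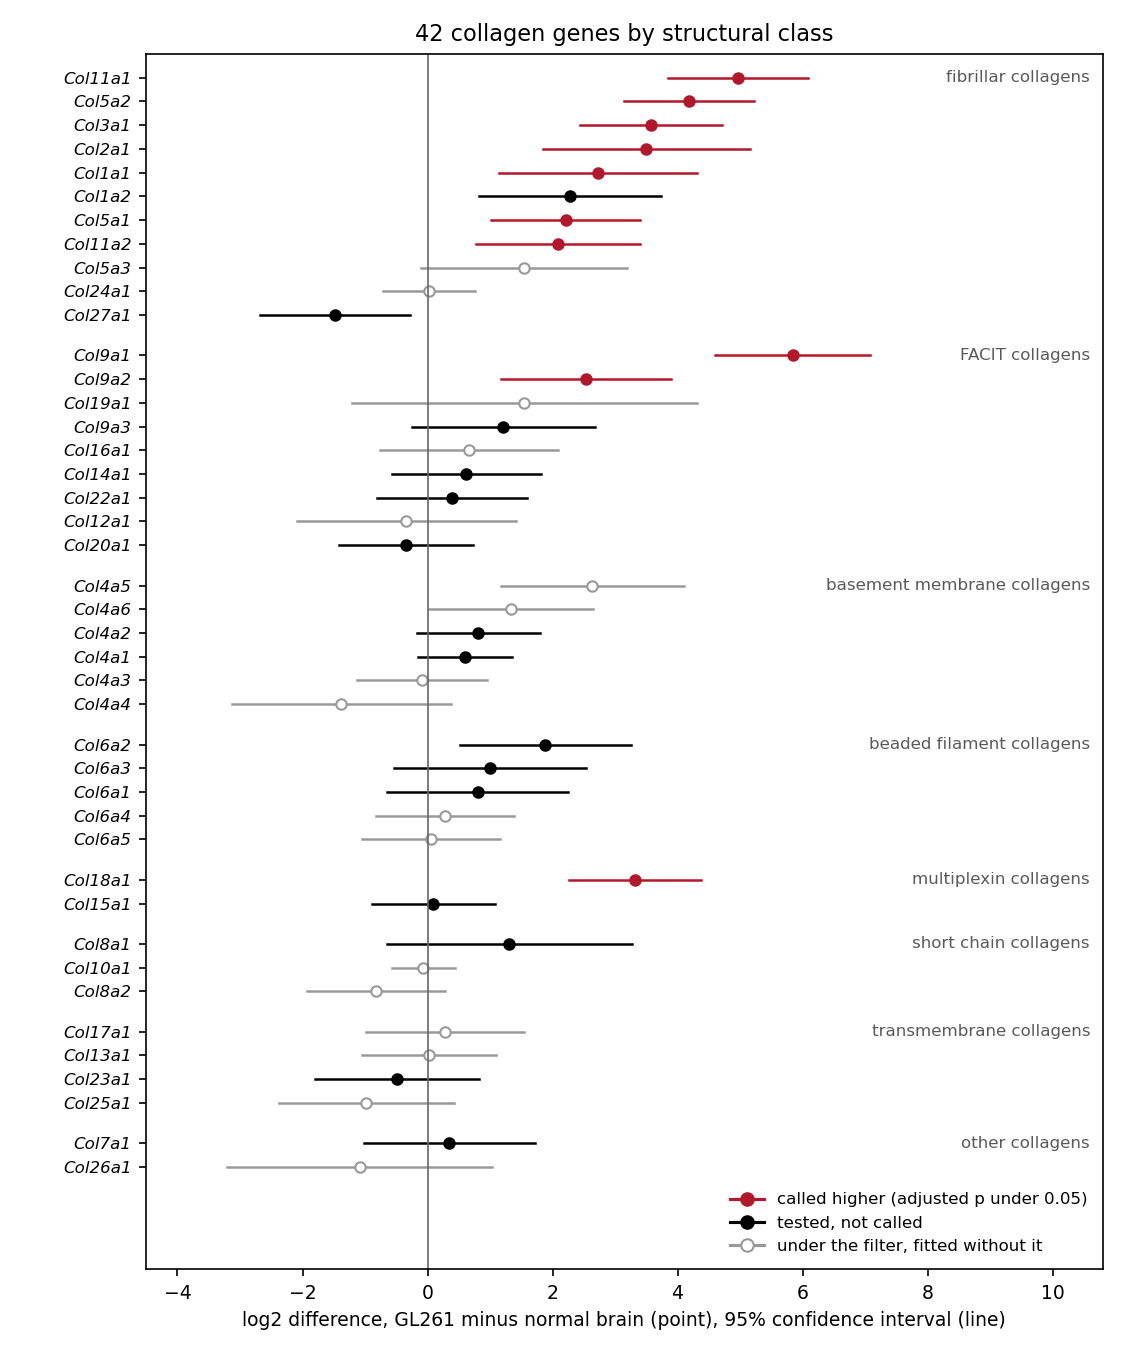
Log2 difference of GL261 minus normal brain (points) with its 95% confidence interval (lines) for the 42 collagen genes, grouped by structural class and, within a class, sorted by difference. Filled red genes were called higher and filled black genes were tested and not called. Open grey genes were under the filter and are shown from the fit without it. Of the 11 fibrillar genes 7 are red, and without the filter 4 were called higher.

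Among the fibrillar collagens, 7 of 11 genes were called higher and 9 were tested, and the median log2 difference of the class was 2.28. Of those called, only Col1a1 and Col3a1 had a normal brain mean above the filter. Without the filter 4 of the 11 genes were called higher. Over all genes the share called higher was 5.92% of those tested, and 2.87% without the filter. Types I and III form the fibres of most connective tissue, with type III abundant in vessel walls and loose tissue. Col3a1, whose product forms a trimer of identical chains, had signals of 790, 1138, 1050 and 751 on GL261 replicates 1 to 4, against 23.6, 89.3 and 158 on normal brain replicates 1 to 3. The lowest GL261 value was well above the highest normal brain value, and the log2 difference was 3.58 (SE 0.52, limma adjusted p = 0.00218). Col1a1, the major chain of type I, had signals of 1392, 1630, 844 and 598 in GL261, against 31.3, 170 and 581 in normal brain. The groups barely separated, since GL261 replicate 4 and normal brain replicate 3 lay side by side. The log2 difference of Col1a1 was 2.73 (SE 0.73, limma adjusted p = 0.0353, and 0.0611 without the filter). Its call was lost in every fit without 1 array except that without normal brain replicate 3 (adjusted p up to 0.0928), and without normal brain replicate 1 the difference was 1.70.

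Col1a2, which pairs with Col1a1 in the type I trimer, just missed the threshold. Its signals were 125, 264, 228 and 310 in GL261, against 8.44, 88.0 and 68.2 in normal brain, without overlap. The log2 difference was 2.28 (95% confidence interval 0.83 to 3.74, limma adjusted p = 0.0506). The gene was called without normal brain replicate 2 (adjusted p = 0.0365), and without normal brain replicate 1 its difference was 1.44.

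Type V collagen joins type I fibres and limits their width, and its 3 genes differed among themselves. Col5a2 had signals of 138, 92.4, 162 and 121 in GL261, against 2.02, 0.587 and 1.21 in normal brain. All normal brain values were at background, so that only a bound can be given, and by this probe set Col5a2 was at least 5.54-fold higher in GL261 (limma adjusted p = 0.000499). Such bounds set the GL261 mean against the background level of the normal brain arrays and are no confidence limits. They hold for the brightest probe set only. The other probe set of Col5a2, above background on 3 GL261 arrays and 1 normal brain array, had a log2 difference of 0.91. Col5a1 had signals of 49.9, 63.4, 61.7 and 69.3 in GL261, against 2.23, 6.28 and 23.5 in normal brain, where 1 array was above background. Its values were close together in GL261 and spread in normal brain, with a log2 difference of 2.21 (SE 0.55, limma adjusted p = 0.0266, and 0.0528 without the filter). Among the 6 fits without 1 array in which Col5a1 was tested, the call was made only without normal brain replicate 3 (adjusted p up to 0.0760). Col5a3, under the filter, had signals of 25.5, 105, 60.8 and 4.29 in GL261, against 12.2, 4.55 and 6.91 in normal brain, so the groups overlapped (log2 difference 1.54, adjusted p = 0.283 by limma without the filter).

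The remaining fibrillar genes, outside types I, III and V, were those of cartilage and of the more recently described types XXIV and XXVII. Col24a1 was at background on all 7 arrays. Col27a1, expressed in developing cartilage, was the tested collagen gene with the most negative difference. It had signals of 70.3, 144, 35.1 and 70.1 in GL261, against 228, 133 and 305 in normal brain. GL261 replicate 2 lay above normal brain replicate 2, and the log2 difference of -1.48 was not called (95% confidence interval -2.69 to -0.28, limma adjusted p = 0.110).

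The collagens of cartilage and of the vitreous of the eye, types II, IX and XI, build a shared fibril, with type XI inside, type II as the bulk and type IX on the surface. This set cuts across the structural classes and was not among the planned lists, so its counts are a description. Of its 6 genes, 5 were called higher in GL261, beside 5.92% of all tested genes. All 5 passed the filter only through their GL261 values. Without it Col9a1, Col11a1 and Col2a1 were called, beside 2.87% of all genes called higher. Col9a1, which encodes the chain of type IX with the globular domain that projects from the fibril, had signals of 445, 1191, 361 and 318 on GL261 replicates 1 to 4, against 1.13, 6.23 and 1.75 in normal brain. No normal brain value was above background, and by this probe set the gene was at least 21.2-fold higher in GL261 (limma adjusted p = 0.000224). Its mean log2 value was 8.98 ± 0.86 (SD, n = 4) in GL261 and 3.13 ± 0.42 (SD, n = 3) in normal brain, the largest fitted log2 difference of the 42 genes. Col11a1, a chain of the type XI core, had signals of 224, 445, 169 and 199 in GL261, against 2.20, 1.10 and 2.45 in normal brain, and was at least 10.4-fold higher (limma adjusted p = 0.000275).

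Col2a1, the only gene of type II, had signals of 166, 962, 92.2 and 132 in GL261, against 22.8, 17.6 and 4.48 in normal brain. Replicate 2 was far above the other GL261 arrays, yet the lowest GL261 value was above all normal brain values (log2 difference 3.50, SE 0.76, limma adjusted p = 0.0157). Without GL261 replicate 2 the difference was 2.78 (adjusted p = 0.0194). Col9a2 had signals of 86.6, 281, 39.9 and 127 in GL261, against 12.4, 13.1 and 15.2 in normal brain. All normal brain values were at background and nearly equal, and Col9a2 was at least 4.75-fold higher (limma adjusted p = 0.0260). It passed the filter only through its GL261 values and was not called without it (adjusted p = 0.0549). Its call was made without GL261 replicate 3 or normal brain replicate 3 and lost in the other 5 fits without 1 array (adjusted p up to 0.0642). Col11a2, the partner of Col11a1, had signals of 64.3, 108, 63.3 and 59.6 in GL261, against 33.2, 1.77 and 14.0 in normal brain, with a log2 difference of 2.09 (SE 0.60, limma adjusted p = 0.0483, and 0.0931 without the filter). Of its fits without 1 array the call was made only without normal brain replicate 1 (adjusted p up to 0.145). Col9a3, the remaining chain of type IX, overlapped between the groups, with 185, 392, 149 and 62.1 in GL261 and 39.5, 45.8 and 156 in normal brain (log2 difference 1.21, limma adjusted p = 0.276).

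All 6 genes of types II, IX and XI had their highest GL261 signal in replicate 2. Replicate 2 was high for other collagen genes too: 14 of the 17 other genes above background on every GL261 array lay above their own GL261 mean there, and Col5a2, Col6a2 and Col7a1 lay below. The share of all genes above their own mean there was not counted. Of all 23 such collagen genes, these 6 included, 14 (60.9%) had their highest value there, where 24.2% of 11681 genes above background on all GL261 arrays did. The median signal was 65.0 on replicate 2 and 50.9 to 59.8 on the other GL261 arrays. Replicate 2 also carried the highest GL261 value of Sox10, a transcription factor of the oligodendrocyte and neural crest lineages, with 648 against 330 to 385 on the other GL261 arrays. Sox9, the known activator of type II, IX and XI genes in cartilage, was highest in replicate 4. It had signals of 28.2, 41.2, 51.1 and 93.0 on GL261 replicates 1 to 4 and 4.18 to 95.7 in normal brain. Sox9 was not called (limma adjusted p = 0.464). Endothelial marker genes summed to 2068 in GL261 replicate 2 and to 565 to 736 on the other GL261 arrays. The part of these markers in the collagen values of replicate 2 was not tested.

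**Figure D3:**
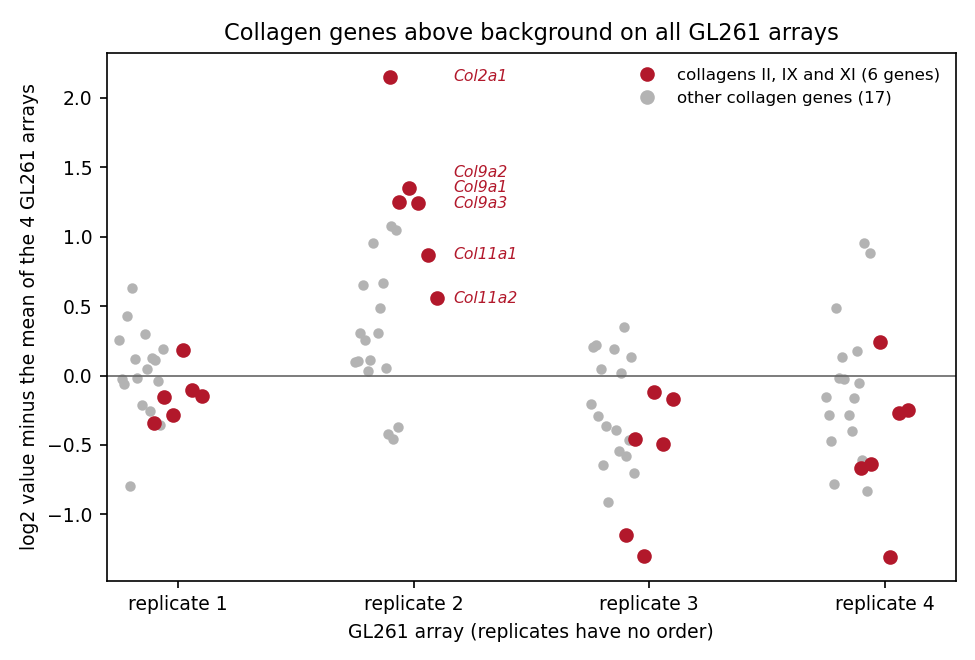
Log2 values of the 23 collagen genes that were above background on all 4 GL261 arrays, each minus its own mean over those arrays, with a column of points per array. The 6 genes of collagens II, IX and XI (red) all lie above their mean in replicate 2, Col2a1 the farthest, and so do 14 of the other 17 genes (grey).

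The promoters of Col9a1 and Col11a1, the genes with the largest differences, are shown because both were at background on every normal brain array and high on every GL261 array. The windows run from 250 bases before to 50 after an annotated start (RefSeq, GRCm38.p6), on the strand of the gene. Capitals mark, on both strands, the letters ACAAAG for a SOX motif, CCAAT for the NF-Y box, GGGCGG for a GC box and TATAAA for a TATA box, none of which overlap here. Col9a1 has 2 such windows.

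Col9a1, upstream start, chr1:24177360-24177659, plus strand: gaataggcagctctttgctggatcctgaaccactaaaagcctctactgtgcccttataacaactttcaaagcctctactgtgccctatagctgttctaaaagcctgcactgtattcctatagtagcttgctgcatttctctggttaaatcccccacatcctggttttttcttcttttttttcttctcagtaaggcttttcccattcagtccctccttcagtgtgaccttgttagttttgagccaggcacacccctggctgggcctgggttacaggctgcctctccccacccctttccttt
Col9a1, downstream start, chr1:24194953-24195252, plus strand: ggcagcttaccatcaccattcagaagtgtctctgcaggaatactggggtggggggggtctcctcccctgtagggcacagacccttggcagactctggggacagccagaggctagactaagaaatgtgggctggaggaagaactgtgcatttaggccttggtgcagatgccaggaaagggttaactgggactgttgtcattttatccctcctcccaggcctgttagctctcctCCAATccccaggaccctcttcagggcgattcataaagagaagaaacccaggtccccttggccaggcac
Col11a1, chr3:114030290-114030589, plus strand: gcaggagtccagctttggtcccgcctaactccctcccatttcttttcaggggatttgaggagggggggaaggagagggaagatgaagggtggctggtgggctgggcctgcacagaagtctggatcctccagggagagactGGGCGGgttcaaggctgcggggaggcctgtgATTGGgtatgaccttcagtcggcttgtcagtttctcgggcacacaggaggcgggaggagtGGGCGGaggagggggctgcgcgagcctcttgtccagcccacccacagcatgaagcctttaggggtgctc

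The upstream window of Col9a1 held none of the 4 motifs and the downstream window held 1 CCAAT box. That of Col11a1 held 2 GC boxes and 1 CCAAT box. The windows differed in base composition, with 47.3% and 55.7% G and C in Col9a1 and 62.3% in Col11a1. Over the 36 windows of 33 collagen genes found in the RefSeq table, 61.1% held a GC box, 36.1% a CCAAT box, 13.9% a TATA box and 11.1% the SOX letters. The shares over all 32851 windows were 35.7%, 37.4%, 13.6% and 18.7% in the same order. These are matches of letters, not sites of binding.

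The multiplexins, collagens XV and XVIII, are heparan sulphate or chondroitin sulphate carriers of basement membranes, and the C-terminal fragment of Col18a1 is endostatin, an inhibitor of vessel growth. Col18a1 had signals of 135, 176, 166 and 101 in GL261, against 9.48, 5.77 and 11.7 in normal brain. No normal brain array was above background, and Col18a1 was at least 6.20-fold higher (limma adjusted p = 0.00218). Col15a1, by contrast, was above background on all arrays, with 273, 299, 320 and 226 in GL261 and 262, 489 and 136 in normal brain. The GL261 values lay within the range of the normal brain values, and the log2 difference was 0.09 (95% confidence interval -0.89 to 1.08, limma adjusted p = 0.926).

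Type IV collagen, the network of basement membranes, has 6 genes that lie in head-to-head pairs. The widely used chains Col4a1 and Col4a2 were above background on all arrays. Col4a1 had 897, 1019, 554 and 551 in GL261, against 307, 492 and 719 in normal brain. Col4a2 had 407, 629, 268 and 351 in GL261, against 364, 248 and 121 in normal brain. Both overlapped between the groups, and within normal brain the order of the arrays was opposite for the paired genes. Their log2 differences of 0.60 (95% confidence interval -0.16 to 1.36) and 0.81 (-0.17 to 1.79) were not called (limma adjusted p = 0.300 and 0.282). Col4a5, a chain of the kidney and smooth muscle network, was under the filter, with 57.2, 47.2, 9.54 and 116 in GL261, against 5.37, 0.931 and 0.646 in normal brain. It was above background on 3 GL261 arrays and on no normal brain array, at least 2.11-fold higher by the bound (adjusted p = 0.0469, limma without the filter). The other probe set of Col4a5 was above background on 3 GL261 arrays and 1 normal brain array, with a log2 difference of only 0.69. Its partner Col4a6 ranged over 0.483 to 49.4 in GL261 and 1.16 to 2.51 in normal brain and overlapped. Col4a3 was near background, with 9.10 to 13.7 in GL261, against 2.92 to 21.3 in normal brain (log2 difference -0.09). Col4a4 had 6.89, 0.650, 38.1 and 24.2 in GL261, against 80.1, 70.9 and 10.4 in normal brain, above background on 2 arrays of each group. Its groups overlapped, and the log2 difference of -1.38 was not called (adjusted p = 0.374, limma without the filter).

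The windows of Col4a1 and Col4a2 share 78 bases, read on opposite strands, and are shown because the pair is transcribed outward from the same stretch. Capitals mark the same motifs.

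Col4a1, chr8:11312777-11313076, minus strand: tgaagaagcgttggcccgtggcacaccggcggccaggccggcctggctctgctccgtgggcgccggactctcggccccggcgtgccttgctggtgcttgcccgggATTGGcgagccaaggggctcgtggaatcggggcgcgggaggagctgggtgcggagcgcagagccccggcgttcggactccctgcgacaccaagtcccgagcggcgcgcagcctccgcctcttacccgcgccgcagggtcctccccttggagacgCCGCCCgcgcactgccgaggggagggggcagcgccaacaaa
Col4a2, chr8:11312555-11312854, plus strand: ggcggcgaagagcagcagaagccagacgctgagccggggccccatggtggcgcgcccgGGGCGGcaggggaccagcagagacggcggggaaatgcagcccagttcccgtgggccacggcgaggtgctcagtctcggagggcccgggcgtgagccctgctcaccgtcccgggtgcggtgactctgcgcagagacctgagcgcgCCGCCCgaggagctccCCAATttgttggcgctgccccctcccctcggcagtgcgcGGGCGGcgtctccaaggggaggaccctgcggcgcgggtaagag

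Both windows were rich in G and C (74.0% and 73.7%), with 37 and 33 CpG steps, and each held a CCAAT box. GC boxes numbered 1 in Col4a1 and 3 in Col4a2. Among collagen genes, 7 pairs are direct neighbours among protein-coding genes. Col3a1 and Col5a2, neighbours on chromosome 1, were both called higher (log2 differences 3.58 and 4.18). The neighbours Col9a1 and Col19a1 were at 5.84 and 1.55. Col19a1 had 780 in GL261 replicate 3 and 2.35 to 24.1 on the other GL261 arrays, against 5.14 to 22.3 in normal brain, so that its difference rested on 1 array (adjusted p = 0.545, limma without the filter).

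Type VI collagen, a beaded filament that links cells to basement membranes and is made by fibroblasts and some macrophages, had 3 genes tested and 0 called. Col6a2 had 65.0, 47.0, 47.0 and 135 in GL261, against 36.6, 3.23 and 13.4 in normal brain, without overlap. Its log2 difference of 1.89 missed the threshold (95% confidence interval 0.52 to 3.26, limma adjusted p = 0.0779), and it was called without normal brain replicate 1 (2.44, adjusted p = 0.0417). Col6a1 (0.80, limma adjusted p = 0.481) and Col6a3 (1.00, limma adjusted p = 0.404) overlapped between the groups, with normal brain replicate 3 at 92.3 for Col6a1 and normal brain replicate 2 at 74.0 for Col6a3. Col6a4 and Col6a5 were above background on 2 and 1 GL261 arrays and on no normal brain array, and neither was called without the filter.

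The other FACIT genes overlapped between the groups. Col14a1, a fibril-associated collagen of tendon and skin, had 473, 423, 342 and 353 in GL261, against 264, 91.7 and 662 in normal brain. It thus varied less among the GL261 arrays (SD 0.22 on the log2 scale) than among the normal brain arrays (SD 1.39), and its log2 difference of 0.62 was not called (limma adjusted p = 0.507). Col20a1 had 44.3 to 116 in GL261 and 84.8 to 104 in normal brain (-0.34, limma adjusted p = 0.698), and Col22a1 had 22.3 to 34.0 in GL261 and 7.52 to 41.2 in normal brain (0.39, limma adjusted p = 0.691). Col12a1 and Col16a1 were under the filter, at -0.34 and 0.66.

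Short chain, transmembrane and other collagens showed no call. Col8a1, a vessel wall collagen, had 56.3, 85.5, 5.17 and 94.8 in GL261, against 9.73, 1.34 and 66.3 in normal brain (1.31, limma adjusted p = 0.388). Col10a1, the collagen of hypertrophic cartilage, was at background on all 7 arrays, with signals of 1.66 to 3.34 in GL261 and 1.77 to 3.43 in normal brain. Col7a1, which anchors the skin epithelium, had 25.3 to 87.8 in GL261 and 19.5 to 87.4 in normal brain (0.35, limma adjusted p = 0.765). Of the transmembrane genes only Col23a1 passed the filter, with 12.3, 23.7, 90.8 and 28.0 in GL261, against 46.7, 45.6 and 43.2 in normal brain (-0.48, limma adjusted p = 0.651). Col13a1, Col17a1, Col25a1, Col26a1 and Col8a2 were under the filter, with log2 differences of -1.08 to 0.27.

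Other probe sets of the same genes mostly went the same way. For 27 genes there were 40 further probe sets, and 18 of these were above background on 3 or more GL261 arrays or on all normal brain arrays. The sign was that of the brightest probe set in 15 of the 18. In a fit with all probe sets as separate rows, the other probe set of Col11a1 was at 4.10 (limma adjusted p = 0.00384), that of Col18a1 at 3.71 (adjusted p = 0.00483) and that of Col1a1 at 3.86 (adjusted p = 0.0176). A further probe set of Col1a2 was at 3.96 and was called (limma adjusted p = 0.0155), where the brightest one missed the threshold. That of Col3a1 was at 2.67 and missed it (limma adjusted p = 0.0639). Those of Col9a1 (2.31), Col5a2 (0.91), Col4a5 (0.69) and Col5a1 (0.38 and 0.59) gave smaller differences and were under the filter. The other probe set of Col4a1 was at 1.76 (limma adjusted p = 0.0574) and that of Col27a1 at -1.96 (adjusted p = 0.0832). With the mean of all probe sets of a gene, 11 collagen genes were called higher, among them Col1a2 and Col4a1, and Col5a1 was not.

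**Figure D4:**
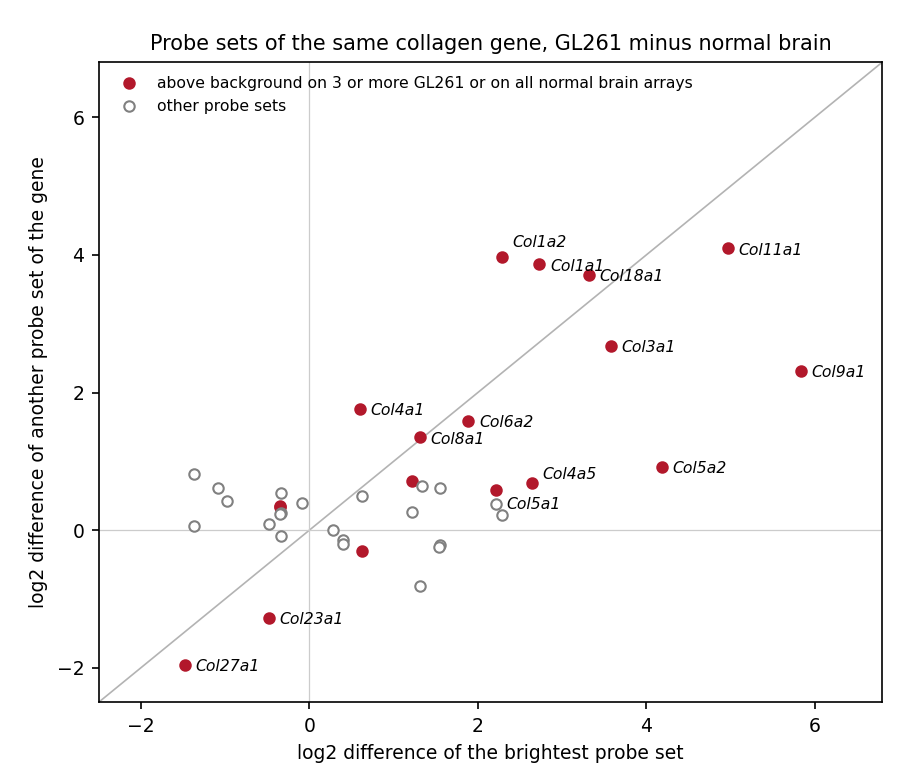
Log2 difference of GL261 minus normal brain of the brightest probe set of a collagen gene (x axis) and of each of its other probe sets (y axis), with the line of equality. Of the 18 probe sets in red, above background on 3 or more GL261 arrays or on all normal brain arrays, 15 have the sign of the brightest. Col1a2, Col1a1 and Col4a1 lie above the line and Col9a1, Col5a2, Col4a5 and Col5a1 below it.

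The genes that fold and modify collagen chains in the endoplasmic reticulum were not called. Of 19 such genes on the array 16 were tested, with 0 called in either direction by limma and 1, Colgalt1, at an unadjusted p under 0.05. Their median log2 difference was 0.12. Colgalt1, which adds galactose to collagen lysines, had 3614, 2444, 3182 and 3006 in GL261, against 2192, 2722 and 1968 in normal brain (0.41, limma adjusted p = 0.159). Plod1, a lysyl hydroxylase, had 907 to 1207 in GL261 and 621 to 932 in normal brain (0.44, limma adjusted p = 0.229). Serpinh1, the collagen chaperone Hsp47, overlapped as well, with 53.5 to 391 in GL261 and 64.0 to 610 in normal brain.

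Genes for trimming of propeptides, cleavage and binding of collagen included several that were called, to be read beside the 5.92% of all tested genes called higher and the 4.2% called lower. Ctsk and Ddr2 passed the filter only through their GL261 values and were also called without it (limma adjusted p = 0.0332 and 0.0324). Of 10 genes for propeptide removal and crosslinking 5 were tested and 1 was called, Pcolce, an enhancer of procollagen C-proteinase. Pcolce had 419, 276, 236 and 309 in GL261, against 58.3, 90.2 and 89.1 in normal brain (1.88, SE 0.43, limma adjusted p = 0.0194). Its call was lost in 2 of 7 fits without 1 array (adjusted p up to 0.0683). The crosslinking enzyme Lox had 88.8 to 215 in GL261 and 0.651 to 302 in normal brain and overlapped. Of 10 genes for cleavage and uptake 8 were tested, 4 were higher and 1 was lower. The collagenase Mmp13 had 5284, 1267, 4300 and 5202 in GL261, against 204, 95.8 and 164 in normal brain (4.51, SE 0.45, limma adjusted p = 0.000275). Here GL261 replicate 2 was the lowest GL261 array, unlike for the cartilage collagens. Ctsk, a lysosomal protease that cuts the triple helix, was at 2.98 (limma adjusted p = 0.0142), the gelatinase Mmp2 at 1.78 (adjusted p = 0.00648) and the membrane collagenase Mmp14 at 1.37 (adjusted p = 0.000464). Mrc1, a mannose receptor that also takes up collagen, fell by 0.69 (limma adjusted p = 0.0407), a call lost in 6 of 7 fits without 1 array (adjusted p up to 0.128) and without the filter (adjusted p = 0.0605).

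Of 8 receptor genes 5 were tested and 1 was called. Ddr2, a tyrosine kinase activated by fibrillar collagen, had 89.2, 73.1, 75.8 and 104 in GL261, against 1.36, 28.4 and 1.63 in normal brain (2.87, SE 0.61, limma adjusted p = 0.0142). Lair1, an inhibitory collagen receptor of leukocytes, had 4582 to 6357 in GL261 and 3655 to 4282 in normal brain without overlap and missed the threshold (0.45, limma adjusted p = 0.0816). Of 18 matrix partners 14 were tested and 3 were called higher, the laminin chain Lamb1 (2.55, limma adjusted p = 0.0469), the proteoglycan Dcn (1.57, adjusted p = 0.0470) and fibronectin, Fn1 (1.31, adjusted p = 0.0180). Lamb1 passed the filter only through its GL261 values, and without the filter Fn1 was called (limma adjusted p = 0.0367) while Lamb1 (0.0906) and Dcn (0.0625) were not. The calls of Lamb1 and Dcn were each lost in 6 of 7 fits without 1 array (adjusted p up to 0.141 and 0.156), and the difference of Fn1 was 0.87 without normal brain replicate 2. Of 11 proteins with a collagen domain outside the family 6 were tested and 1 was called. The scavenger receptor Msr1 had 2763 to 4278 in GL261 and 870 to 1177 in normal brain (1.71, limma adjusted p = 0.000430). The complement genes C1qa, C1qb and C1qc, strongly expressed by brain macrophages, were at -0.20, -0.39 and -0.05 and were not called.

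**Figure D5:**
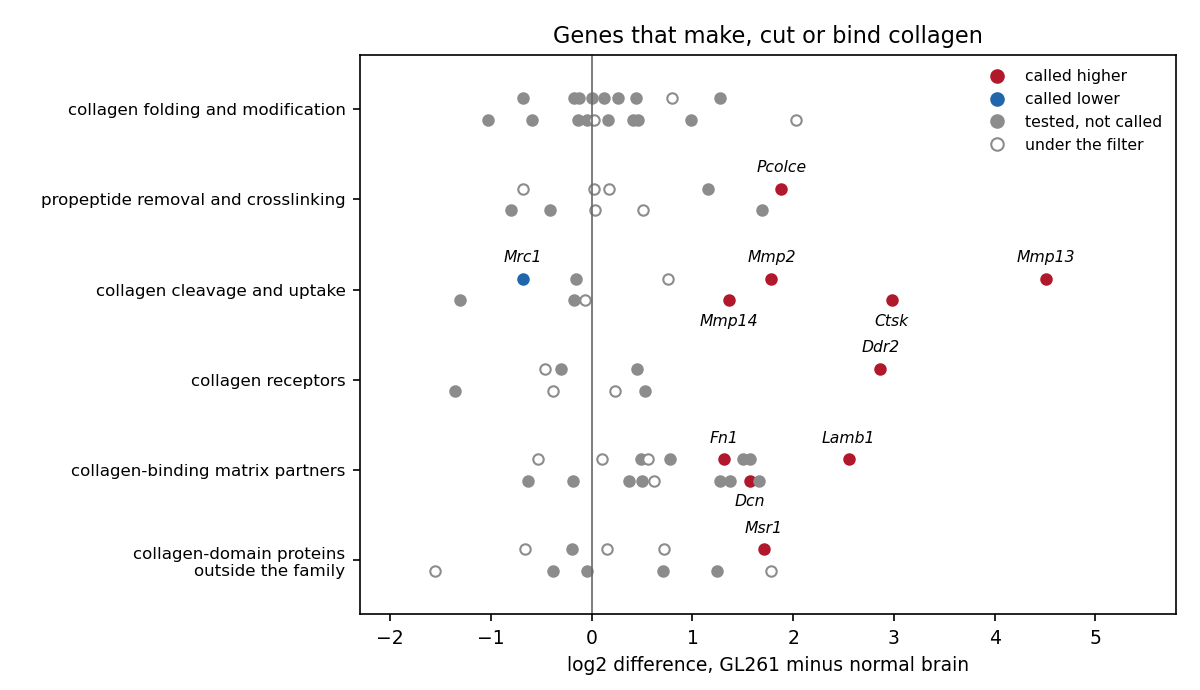
Log2 difference of GL261 minus normal brain for genes that fold, process, cut or bind collagen, a row of points per list (vertical offsets only separate points). Genes called higher (red) are Pcolce, Mmp13, Ctsk, Mmp2, Mmp14, Ddr2, Lamb1, Dcn, Fn1 and Msr1, Mrc1 (blue) was called lower, and the 16 tested folding genes (grey) were not called.

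Markers of other cell types that the sorted preparations could hold were compared in the same way, and are read beside the 5.92% of all tested genes that were called higher and the 4.2% called lower. Sox10, Olig2, Gpr17, Tagln, Notch3 and Tubb3 passed the filter only through their GL261 values, and Tek and Tie1 only through their normal brain values. Of 10 pericyte and smooth muscle genes 7 were tested and 3 were higher, Tagln (2.81, limma adjusted p = 0.0254), Anpep (2.02, adjusted p = 0.0208) and Notch3 (1.90, adjusted p = 0.0470). Rgs5 went the other way (-0.93, limma adjusted p = 0.368), with 65.1 to 438 in GL261 and 218 to 638 in normal brain. Pdgfrb (0.56) and Myh11 (0.11, under the filter) overlapped between the groups. The summed signal of the list was 1967 to 3021 in GL261 and 925 to 1160 in normal brain, and Cspg4 was at background on all normal brain arrays. Without Anpep the sum was 631, 1567, 1273 and 935 on GL261 replicates 1 to 4, against 638, 807 and 823 in normal brain, so that the groups overlapped. Anpep, which macrophages also express, had 399 in GL261 replicate 2 and 1748 to 1893 on the other GL261 arrays. Tagln was not called in 3, Anpep in 4 and Notch3 in 6 of 7 fits without 1 array, and without the filter the adjusted p of Notch3 was 0.0913. Of 10 fibroblast and meningeal genes 7 were tested and 1 was higher, Dcn, which was not called without the filter (limma adjusted p = 0.0625). The median log2 difference of the list was 0.21, and its summed signal of 2007 to 3193 in GL261 overlapped with 1299 to 2448 in normal brain. Dpt was at background on all normal brain arrays and above it on only 1 GL261 array, so the groups overlapped (0.35). Mfap5 (-0.68), Islr (-0.58) and Slc6a13 (-0.56) were lower in GL261, all with overlap and none called.

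Of 9 oligodendrocyte precursor genes 6 were tested and 4 were higher, Sox10 (5.16, limma adjusted p = 0.000551), Olig2 (2.85, adjusted p = 0.00625), Olig1 (2.77, adjusted p = 0.00803) and Gpr17 (1.81, adjusted p = 0.0416, called in 1 of the 3 fits without 1 array in which it was tested). Without the filter Sox10, Olig2 and Olig1 were called, Gpr17 was not (limma adjusted p = 0.0734), and Cspg4, under the filter before, was higher (adjusted p = 0.0173). The list summed to 883 to 1587 in GL261 and 235 to 340 in normal brain, and Cspg4, Gpr17, Nkx2-2 and Olig2 were at background on all normal brain arrays. Nkx2-2 was above background on only 2 GL261 arrays, and its groups overlapped. Sox8, under the filter, went the other way (-0.68) and Bcan was at 0.71, both with overlap and neither called. Pdgfra, shared by precursors and fibroblasts, had 41.2 to 161 in GL261 and 15.4 to 205 in normal brain. Of 10 endothelial genes 9 were tested and 4 were lower, Slco1a4 (-4.69, limma adjusted p = 0.0111), Tek (-4.04, adjusted p = 0.0115), Cldn5 (-3.69, adjusted p = 0.0202) and Tie1 (-2.45, adjusted p = 0.0430). The list was not uniform: Pecam1, which leukocytes also express, was above all normal brain arrays on every GL261 array, with 129, 156, 208 and 147 in GL261, against 98.3, 62.5 and 41.2 in normal brain (1.23, adjusted p = 0.127), and Kdr was at 0.43 with overlap. The summed signal of the list was 565 to 2068 in GL261 and 3543 to 4081 in normal brain. Without the filter Tie1 was not called (limma adjusted p = 0.0767). Cldn5 was not called in 5 of 7 fits without 1 array, and Tie1 was not called in the 3 such fits in which it was tested. Of 10 astrocyte genes 0 were called by limma, with S100b (1.25, adjusted p = 0.106) the only gene at an unadjusted p under 0.05 and Aldh1l1 at 1.11 (adjusted p = 0.278). Of 10 neuron genes 7 were tested, Tubb3 was higher (2.74, limma adjusted p = 0.0271) and Eno2 lower (-1.49, adjusted p = 0.0497), calls lost in 3 of 6 and in 5 of 7 fits without 1 array. Without the filter neither was called (limma adjusted p = 0.0547 for Tubb3 and 0.0813 for Eno2), and Stmn2 was lower (-2.51, adjusted p = 0.0382). The neuron genes summed to 399 to 1779 in GL261 and 1416 to 2579 in normal brain, and the astrocyte genes to 1893 to 3716 in GL261 and 1493 to 4004 in normal brain. Among macrophage markers Cx3cr1 fell by 0.71 (limma adjusted p = 0.0270, lost in 4 of 7 fits without 1 array), and 9 of 10 were not called. The part of these other cells, of tumour cells and of the macrophages themselves in the collagen signals was not tested.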

How the data were processed

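Macrophage RNA from GL261 tumours (4 arrays) and normal brain (3 arrays) was measured on Affymetrix mouse whole-genome arrays. The deposited values are linear MAS5 intensities per probe set, made by the authors with MAS5 per the submitters' processing notes; the sources used here name neither its version nor its scaling. MAS5 subtracts mismatch signal, which makes low values noisy.

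Of 45101 probe sets, 34945 had 1 gene symbol in the platform annotation, 932 several and 9160 none, with 64 controls left out. Each of 18193 genes was read by its brightest probe set. Values were taken as log2(signal + 6), 6 being the 20th percentile, and the 12125 genes with a mean above 4.93 (40th percentile) were tested in R 4.3.3 with limma 3.58.1 (trended variance, no block, Benjamini-Hochberg). Intervals are 95% confidence intervals for single genes. The number of arrays limits the precision. The fit was tested on simulated data. Promoter windows came from RefSeq (GRCm38.p6).

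Collagen genes that were called, or did not overlap and differed by at least 1 in log2, are given on every array; up to 3 called genes per direction of each other list are named, or the 2 of smallest p. Adgre1, Sox9, Pdgfra, Lox, Serpinh1, Lair1, Mmp14, Gpr17, Tie1, Pecam1, Kdr, Stmn2, Cspg4, Rgs5, Pdgfrb, Myh11, Dpt, Mfap5, Islr, Slc6a13, Nkx2-2, Sox8, Bcan and the C1q genes fall outside that rule and were chosen after their values were seen, as was the pericyte sum without Anpep. The set of types II, IX and XI and its counts by replicate were not among the planned lists. The members and lists were chosen with earlier results of these data known. Alternatives covered pseudocount, filter, scaling, variance model, array weights, probe sets, replicate block and each array left out. Replicate numbers did not pair the arrays: deviations of same-numbered arrays correlated at 0.08, -0.01 and 0.03. Figures were drawn with Python 3.11.15 and matplotlib 3.10.9.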

Additional observations from a re-analysis of the deposited data

Results flagged for a closer look

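Among the 42 collagen genes, 2 had a GL261 array far from the other GL261 arrays, where chance gives about 1 in 20 groups. The count is thus near what chance alone gives. Col11a2 was at a log2 value of 6.84 in GL261 replicate 2 and at 6.03 to 6.14 on the other GL261 arrays. Col22a1 was at 4.82 in GL261 replicate 3 and at 5.30 to 5.32 on the other GL261 arrays. The 3 normal brain arrays were too few for this comparison.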

How the results depend on the processing

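None of the 12 collagen genes and 29 other genes followed through the alternatives changed sign in a fit that tested it. Col4a5 had a value only without the filter, and the other 29 collagen genes were not followed one by one. The count of collagen genes called lower by limma was 0 under every setting run, and at an unadjusted p under 0.05 it was 1 with the filter and 1 without it. Against 10 collagen genes called higher, all at least 2-fold, 2 were called with a filter at the 60th percentile, which left 6 tested, 6 without a variance trend and 6 with both GL261 replicate 2 and normal brain replicate 1 left out, a setting chosen after seeing the data. Leaving out 1 array gave 6 to 9, with and without the fold limit. Over all genes, 1227 calls became 809 with median centring and 455 without a variance trend, and 539 to 1182 with 1 array left out. Without GL261 replicates 1, 3 and 4 the counts were 706, 539 and 727. The replicate block, on numbers that did not pair the arrays, gave 7 collagen genes and 1004 genes; 1 of 3 normal brain arrays correlated best with its own number. Col2a1 missed the threshold without a variance trend (limma adjusted p = 0.0596). The cause of these changes was not tested beyond the fewer genes or arrays fitted. Of 215 fits of 13 collagen genes, 168 kept the call or its absence, 42 lost a call and 5 gained one. Of 522 fits of the other 29 genes followed, 396 kept it and 126 lost it. Both tallies leave out fits in which a gene fell under the filter, so a call absent there is not counted as lost. The only fit of Col4a5 was compared with itself. The share of higher calls was 58.5%, 57.5% with quantile normalization and 62.4% with median centring. Genes near background limit what can be said: 17 of the 42 collagen genes were under the filter and 2 were at background on all arrays.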
